A study of Mus musculus with 18 samples.

Results

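The question here was whether depletion of Setd2 changed the same genes in the same direction before and after muscle cells differentiate. All 18 libraries of the series entered, in 6 groups of 3: C2C12 myotubes with Setd2 siRNA 1, with Setd2 siRNA 2 and with control siRNA, and C2C12 myoblasts with the same 3 treatments. Each siRNA effect in myotubes was the log2 difference from control myotubes, each effect in myoblasts the log2 difference from control myoblasts, and the stage difference was the myotube effect minus the myoblast effect. Of 47311 genes in the tables, 16930 passed edgeR's filter on low counts and were tested, and shares of all genes below refer to these. A gene was called when its adjusted p was under 0.05 in edgeR's quasi-likelihood test over all genes tested. A gene was named opposite by stage with an siRNA when its effect was called in myotubes, called with the other sign in myoblasts, and its stage difference was called too. With both siRNAs in the same orientation, 119 of the 16930 genes met that definition, 100 of them lower on depletion in myotubes and higher in myoblasts, and 19 higher in myotubes and lower in myoblasts.

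C2C12 is an established mouse muscle cell line whose myoblasts proliferate as single cells and, once they leave the cell cycle, fuse into myotubes with many nuclei. Setd2 is the enzyme that places 3 methyl groups on lysine 36 of histone H3 along transcribed genes, a mark read by proteins of splicing, DNA repair and DNA methylation. Genes of mitosis carry the CHR promoter element, through which the MMB-FOXM1 complex activates them in dividing cells and the DREAM complex represses them in resting cells, and differentiation normally lowers these genes while sarcomere and mitochondrial genes are switched on. The myoblast samples are labelled undifferentiated, the myotube samples differentiated. RNA is labelled as polyadenylated, and extraction followed stretching of the cultures at once in every group; cells without stretch and the siRNA sequences were not analysed here. The sources do not give the time of transfection relative to differentiation, nor whether strand was kept, so reads of genes that overlap cannot be told apart. The libraries are labelled as biological replicates, but whether they come from separate cultures is not stated further, so the p values measure the spread between these libraries.

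The libraries held 43.5 to 66.6 megareads. The 10 myotube state markers, among them Myog and Myh3, summed to 23910 to 26643 TPM in myotubes and to 58.6 to 240 TPM in myoblasts, with no overlap between the stages. The 2 ribosomal RNA-like genes AY036118 and CT010467.1 took 1.27% to 2.99% of counts in myotubes; in myoblasts they took 3.56% to 3.91% with siRNA 1, 1.46% to 4.1% with siRNA 2 and 1.2% to 1.36% with control siRNA, and their part in the results was not tested. Library names carry 1 of 2 prefixes of unstated meaning in each stage, C13 or D1 in myotubes and C14 or D2 in myoblasts, in unequal numbers per group. A myoblast library, the third with siRNA 2, carries SETD3 in its name instead of SETD2, and the third myotube control carries NT_2 where the other controls carry NT_1. The main counts are therefore also given without these libraries and within each prefix.

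Setd2 was lower with both siRNAs in both stages. It stood at 58.8, 38.9 and 39.1 CPM with siRNA 1, 38.9, 35.9 and 34.4 with siRNA 2 and 107, 108 and 101 with control siRNA in myotubes, and at 41.5, 41.5 and 34.4 CPM with siRNA 1, 45, 44 and 39.3 with siRNA 2 and 97.7, 109 and 118 with control siRNA in myoblasts. Every depleted library lay below every control of its stage, and the first myotube library of siRNA 1, the only C13 library of its group, kept more Setd2 than the other depleted libraries. Its log2 changes were -1.21 and -1.54 in myotubes and -1.46 and -1.34 in myoblasts; wherever a pair of changes or counts is given for a stage, siRNA 1 comes before siRNA 2. The stage difference of the mean of both siRNAs was 0.03 (SE 0.17, adjusted p = 0.942), which did not pass edgeR's test. Within C13 the siRNA 1 effect on Setd2 was -0.82 and within D1 -1.47.

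In myotubes siRNA 1 raised 1713 genes and lowered 1806 genes (10.1% and 10.7% of those tested), and siRNA 2 raised 2563 and lowered 2757 (15.1% and 16.3%). In myoblasts siRNA 1 raised 1633 and lowered 1276 (9.65% and 7.54%), and siRNA 2 raised 2511 and lowered 2573 (14.8% and 15.2%). The stage difference of the mean of both siRNAs was called for 3962 genes, 23.4% of those tested, with 1796 more positive in myotubes (10.6%) and 2166 more negative (12.8%). For siRNA 1 alone it was called higher for 876 genes (5.17%) and lower for 1537 (9.08%), and for siRNA 2 higher for 2254 (13.3%) and lower for 2308 (13.6%). It was called for the mean and for each siRNA with 1 sign for 558 genes on the higher side (3.3%) and 1100 on the lower side (6.5%). Both siRNAs are set against the same 3 control libraries within a stage, so calls shared between them are not independent, whereas effects in myotubes and myoblasts share no library.

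Most stage differences were not reversals. Of the 1796 genes with a higher effect in myotubes, 713 were called in myotubes alone, 651 in myoblasts alone, 195 with opposite signs, 110 the same way in both stages and 127 in neither. Of the 2166 with a lower effect in myotubes, 784 were called in myotubes alone, 709 in myoblasts alone, 394 with opposite signs, 164 the same way in both and 115 in neither. Among genes called in both stages, signs were opposite for 282 of 1013 with siRNA 1 (27.8%) and for 698 of 2244 with siRNA 2 (31.1%). Across the 16930 genes the myotube and myoblast effects had a Pearson r of 0.08 and a Spearman rho of 0.15 with siRNA 1, and 0.14 and 0.15 with siRNA 2. These correlations are across genes, which are not independent replicates, and small effects in them carry counting error.

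**Figure D1:**
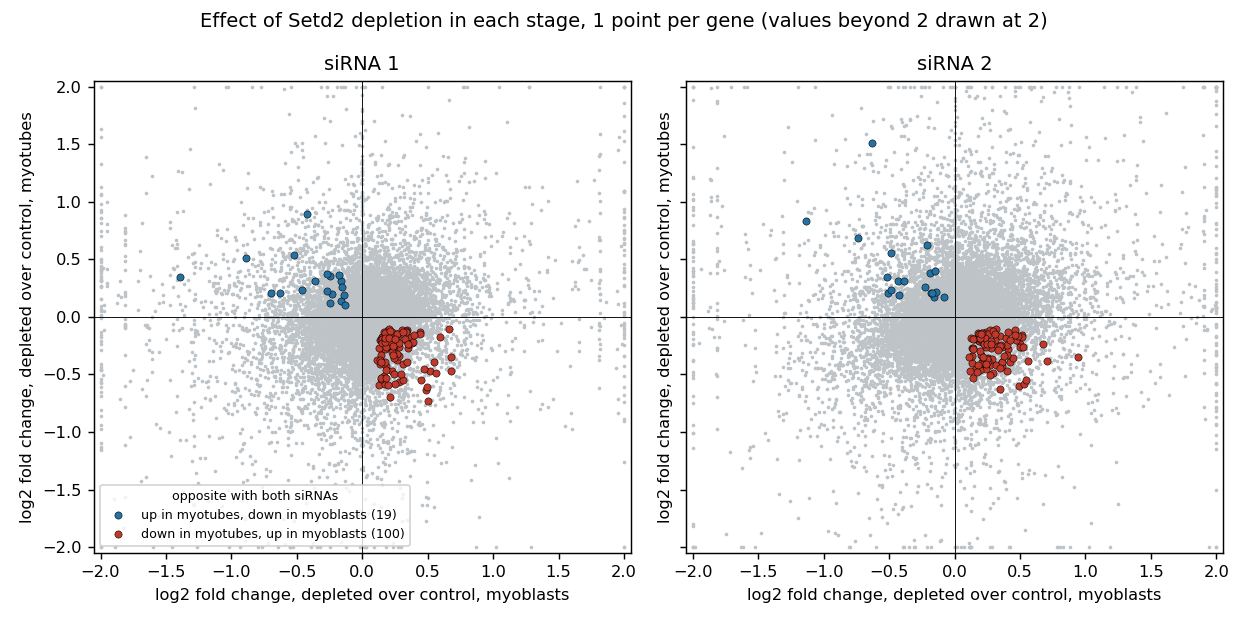
Each point is 1 of the 16930 genes tested, with the log2 fold change of depleted over control in myoblasts on the x axis and in myotubes on the y axis, for siRNA 1 on the left and siRNA 2 on the right. The 100 red genes fell in myotubes and rose in myoblasts with both siRNAs, the 19 blue genes did the reverse, and most of both sets lie within 1 log2 unit of 0.

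Opposite calls leaned towards a fall in myotubes. With siRNA 1, 205 genes were lower in myotubes and higher in myoblasts (1.21% of genes tested), and 77 were the other way round (0.455%). With siRNA 2 the numbers were 464 (2.74%) and 234 (1.38%). The 100 genes lower in myotubes with both made up 0.591% of genes tested and the 19 genes higher in myotubes 0.112%, and no gene was opposite with each siRNA in conflicting orientations. All 119 were protein coding. Their effects were small: over the 100 genes the median log2 change was -0.26 and -0.27 in myotubes and 0.23 and 0.28 in myoblasts, and the stage difference ran from -1.17 to -0.33. Over the 19 genes the medians were 0.26 and 0.31 in myotubes and -0.27 and -0.38 in myoblasts, and the stage difference ran from 0.25 to 1.68. Gene bodies had a median length of 32.8 kb for the 100 genes and 66.9 kb for the 19, against 17.9 kb for all genes tested, and mean levels a median of 65.5 and 41.2 CPM against 14.7 CPM. A higher count makes a small change easier to call, so these properties describe the genes that passed.

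Counts of opposite genes moved with the libraries used. Without the third myoblast library of siRNA 2, 108 genes were opposite with both siRNAs, and without the third myotube control 97. Within C14 and C13 alone the count was 121, of which 59 were among the 119, and within D2 and D1 alone 219, of which 86 were. All 119 genes kept the sign of all 4 effects in each prefix, although several groups then hold 1 library. They were chosen for these signs in the same libraries, so the kept signs are no separate support for the directions. Scaled by library totals alone, 70 genes were opposite with a fall in myotubes and 28 with a rise, against 100 and 19 with the scaling used here.

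Of the lists with opposite medians, that of mitosis had the largest share of called stage differences. Of the 61 mitosis genes in the list, all tested, 60 fell in myotubes with siRNA 1, 60 fell with siRNA 2 and none rose, against 10.7% and 16.3% of all genes falling. In myoblasts 14 rose and 1 fell with siRNA 1, and 27 rose and 5 fell with siRNA 2, where 9.65% and 14.8% of all genes rose. The stage difference was called lower in myotubes for 60 of 61 (12.8% of all genes) and higher for none. Median log2 changes over the list were -0.52 and -0.41 in myotubes and 0.08 and 0.10 in myoblasts, against medians within 0.01 of 0 over all genes in every comparison. Summed over the list, transcripts stood at 1163, 1249 and 1195 CPM with siRNA 1, 1299, 1303 and 1223 with siRNA 2 and 1602, 1710 and 1701 with control siRNA in myotubes, and at 10040, 10073 and 9924 CPM with siRNA 1, 10639, 10034 and 10161 with siRNA 2 and 9483, 9571 and 9443 with control siRNA in myoblasts. Depleted and control libraries did not overlap in either stage. Control myotubes held less mitosis RNA than control myoblasts, and the depleted groups of the 2 stages were further apart than the controls. In a culture, fewer dividing cells and less of this RNA per cell cannot be told apart.

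The summed level of myoblast state markers moved in the same directions, with exceptions among its members. The 10 markers, Pax7, Nes and Id1 among them and Mki67 shared with the mitosis list, summed to 1292 to 1314 TPM with siRNA 1, 1154 to 1188 TPM with siRNA 2 and 1440 to 1596 TPM with control siRNA in myotubes. In myoblasts they summed to 2002 to 2094 TPM with siRNA 1, 2104 to 2287 TPM with siRNA 2 and 1886 to 1988 TPM with control siRNA. Of the 9 tested, 6 and 4 fell (10.7% and 16.3% of all genes) and 0 and 2 rose (10.1% and 15.1%) in myotubes. In myoblasts 5 and 6 rose (9.65% and 14.8%) and none fell. The stage difference was called negative for 5 of the 9, against 12.8% of all genes. Nes alone averaged 944 TPM with siRNA 1, 804 TPM with siRNA 2 and 1070 TPM with control siRNA in myotubes. Control myoblasts averaged 580 TPM of Nes, so these data do not bear out Nes as a myoblast marker. Nes made up most of the summed level in control myotubes, and most of the fall of the sum in myotubes with each siRNA. Ccnd1 and Myf5 rose in myotubes with siRNA 2, and in myoblasts with siRNA 1 Pax7, Id1, Id3 and Cdk4 did not pass the test. What part these markers have in the fall of mitosis genes in myotubes was not tested. The 10 myotube markers had 0 called stage differences, with 25197 to 26643 TPM summed over both siRNAs' myotubes and 23910 to 25080 TPM in control myotubes.

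The 10 mitosis genes opposite with both siRNAs were Kif4, Plk1, Foxm1, Ccna2, Mki67, Bub1, Cenpe, Tpx2, Cdc20 and Smc2. Kif4, a kinesin motor that carries chromosomes and acts at the central spindle (ENSMUSG00000034311, chromosome X, positions 100625737 to 100727214 of mm10), had the largest stage difference of them. It stood at 10.6, 11.8 and 11.6 CPM with siRNA 1, 12.5, 12.5 and 11.6 with siRNA 2 and 15.5, 15.9 and 16.3 with control siRNA in myotubes, and at 114, 113 and 114 CPM with siRNA 1, 130, 122 and 124 with siRNA 2 and 75.7, 77.9 and 76.8 with control siRNA in myoblasts. All depleted myotube libraries lay below all control myotubes and all depleted myoblast libraries above all control myoblasts. In log2 units it changed by -0.49 (SE 0.05, adjusted p = 4.84e-07) and -0.38 (SE 0.05, adjusted p = 3.14e-06) in myotubes and 0.57 (SE 0.04, adjusted p = 1.95e-09) and 0.70 (SE 0.04, adjusted p = 3.52e-11) in myoblasts, with a stage difference of -1.07 (SE 0.05, adjusted p = 1.43e-10). Plk1, the kinase that drives entry into and passage through mitosis (chromosome 7, positions 122159439 to 122169873 of mm10), stood at 10.7, 11.7 and 10.3 CPM with siRNA 1, 11.3, 11.5 and 11.5 with siRNA 2 and 14.4, 16.4 and 15.2 with control siRNA in myotubes, and at 137, 136 and 149 CPM with siRNA 1, 149, 147 and 146 with siRNA 2 and 114, 117 and 113 with control siRNA in myoblasts. Again no depleted library overlapped a control of its stage. The stage difference was -0.79 (SE 0.06, adjusted p = 2.99e-08).

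The transcription factor Foxm1, which activates genes of the G2 and M phases (chromosome 6, positions 128362967 to 128376146 of mm10), was opposite too. It stood at 21.6, 23.3 and 21.5 CPM with siRNA 1, 24.3, 25.7 and 24.2 with siRNA 2 and 31.5, 33.2 and 33.7 with control siRNA in myotubes, and at 198, 200 and 216 CPM with siRNA 1, 212, 221 and 214 with siRNA 2 and 166, 173 and 167 with control siRNA in myoblasts, with no overlap in either stage and a stage difference of -0.81 (SE 0.05, adjusted p = 5.13e-09). Ccna2, cyclin A2, had log2 changes of -0.59 and -0.49 in myotubes and 0.18 and 0.30 in myoblasts. Mki67, the gene of the proliferation marker Ki-67, had -0.53 and -0.42 in myotubes and 0.14 and 0.32 in myoblasts. Over the 10 genes the changes ran from -0.59 to -0.38 and from -0.49 to -0.33 in myotubes, and from 0.14 to 0.57 and from 0.20 to 0.70 in myoblasts. Kif4 overlaps Pdzd11 and Plk1 overlaps Gm44985 on the other strand, and Ccna2 overlaps Exosc9. Among genes described below, Manf, Tpm4, Vasp, Itgav, Mrpl12, Ctsb, Palm3, Igfbp7 and Foxq1 also overlap a gene on the other strand, and Tubb3, Timp2 and Col5a2 overlap one on the same strand.

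**Figure D2:**
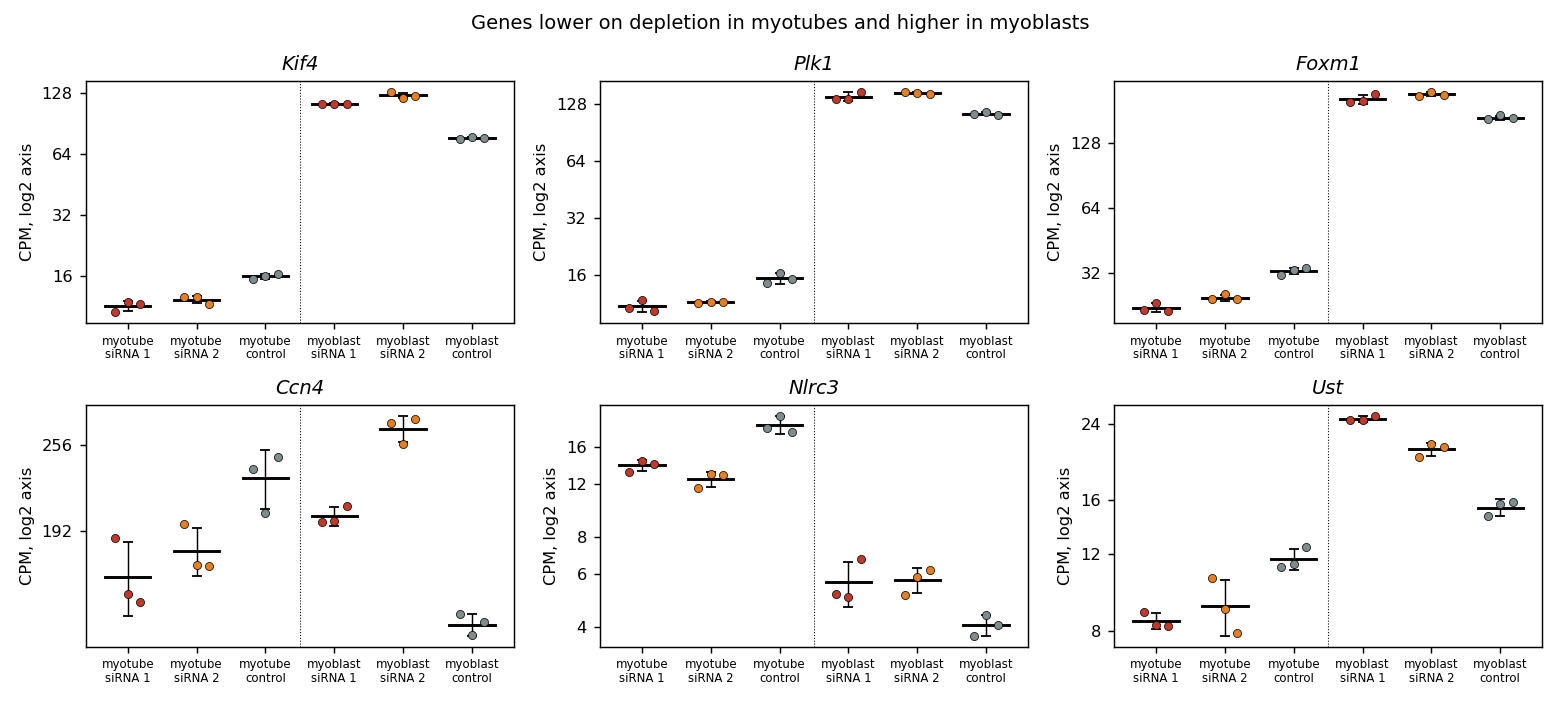
CPM on a log2 axis of 6 genes that fell on depletion in myotubes and rose in myoblasts with both siRNAs. Points are libraries, the thick line is the mean and the bar 1 SD of 3 libraries, with myotube groups left of the dotted line and myoblast groups right of it. In each gene the depleted myotube points lie below the control points of that stage and the depleted myoblast points above theirs.

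Promoters of mitosis genes are shown because a cell cycle element recurs in them. Windows run from 250 bases before to 50 bases after the annotated start, as listed by RefSeq on GRCm38.p6, and were found for 51 of the 61 genes. The CHR letters TTTGAA or TTCGAA, or their complement on the other strand, were in 38 of the 51 (74.5%), against 1576 of 11316 promoters of all genes tested (13.9%). CCAAT, on either strand, was in 36 (70.6%) against 4366 (38.6%). Of the 100 opposite genes lower in myotubes, 80 had a promoter entry, of which 21 (26.2%) held the CHR letters and 35 (43.8%) CCAAT. Of the 19 higher in myotubes, 14 had one, of which 1 and 6 held these motifs. In the lines below, Kif4 is chrX:100625815-100626114 on the plus strand, Plk1 chr7:122159185-122159484 on the plus strand and Mki67 chr7:135716330-135716629 on the minus strand, with both motifs in capitals (CCAAT appears as ATTGG where it lies on the other strand).
Kif4: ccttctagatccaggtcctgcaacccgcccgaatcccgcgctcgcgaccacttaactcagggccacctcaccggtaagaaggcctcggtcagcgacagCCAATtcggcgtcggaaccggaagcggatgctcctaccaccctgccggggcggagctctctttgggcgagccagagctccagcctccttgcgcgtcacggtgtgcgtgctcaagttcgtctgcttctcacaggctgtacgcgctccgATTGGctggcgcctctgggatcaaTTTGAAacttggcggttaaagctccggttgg
Plk1: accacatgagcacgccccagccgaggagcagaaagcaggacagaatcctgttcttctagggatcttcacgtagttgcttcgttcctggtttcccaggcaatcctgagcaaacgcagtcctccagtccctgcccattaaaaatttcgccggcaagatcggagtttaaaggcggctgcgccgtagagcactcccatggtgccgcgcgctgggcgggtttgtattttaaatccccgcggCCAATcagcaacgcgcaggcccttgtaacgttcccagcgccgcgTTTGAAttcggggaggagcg
Mki67: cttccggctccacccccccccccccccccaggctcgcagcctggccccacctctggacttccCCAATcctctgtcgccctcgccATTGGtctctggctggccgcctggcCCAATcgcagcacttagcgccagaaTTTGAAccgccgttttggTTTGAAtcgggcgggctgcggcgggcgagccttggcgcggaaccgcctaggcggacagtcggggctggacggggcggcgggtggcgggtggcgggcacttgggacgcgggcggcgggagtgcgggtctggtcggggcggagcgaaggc
TTTGAA began at position 20 after the start in Kif4, at position 31 in Plk1, and at positions -116 and -98 in Mki67. A match describes letters in these windows and does not show that a factor binds there.

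Cell division genes outside the list were also among the 100. A further 12 genes were picked from the 100 by their known role after their values were seen. Most act at the spindle, the kinetochore, in condensin or in cytokinesis, among them Aspm, Spag5, Kntc1, Spdl1 and Ncapg2. Log2 changes of the 12 ran from -0.60 to -0.12 and from -0.53 to -0.14 in myotubes, and from 0.13 to 0.68 and from 0.11 to 0.38 in myoblasts. Eme1, a partner of the Mus81 DNA endonuclease, stood at 1.38, 1.1 and 1.15 CPM with siRNA 1, 1.45, 1.17 and 1.07 with siRNA 2 and 1.68, 1.83 and 2.14 with control siRNA in myotubes, and at 13.9, 13.8 and 14.4 CPM with siRNA 1, 12.8, 12.5 and 12.9 with siRNA 2 and 9.98, 10.3 and 9.67 with control siRNA in myoblasts. No depleted library overlapped a control of its stage, but Eme1 shares its locus with Lrrc59 and Mrpl27 on the other strand. Sapcd2, a regulator of spindle orientation, had log2 changes of -0.55 and -0.47 in myotubes and 0.31 and 0.40 in myoblasts.

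Many S phase and DNA repair genes fell in myotubes, and fewer were called in myoblasts. Of the 56 S phase genes, 40 and 38 fell in myotubes (10.7% and 16.3% of all genes) and 0 and 3 rose (10.1% and 15.1%). In myoblasts 4 and 13 rose (9.65% and 14.8% of all genes) and 6 and 7 fell (7.54% and 15.2%). The stage difference was lower for 41 (12.8% of all genes) and higher for 0. The medians were -0.28 and -0.30 in myotubes and 0.01 and 0.04 in myoblasts, and the signs of the myoblast medians turned with scaling by library totals or on the TPM scale. No S phase gene was opposite with both siRNAs. Uhrf1, which recruits DNA methyltransferase to replicated DNA, stood at 26, 25.9 and 23.8 CPM with siRNA 1, 23.5, 26 and 24.4 with siRNA 2 and 34.8, 37.2 and 36.8 with control siRNA in myotubes, and at 227, 227 and 233 CPM with siRNA 1, 232, 237 and 238 with siRNA 2 and 226, 228 and 227 with control siRNA in myoblasts. The myotube groups did not overlap the controls, whereas in myoblasts neither siRNA effect passed the test (0.01 and 0.06). Rrm2, a ribonucleotide reductase subunit, rose in myoblasts by 0.23 and 0.55, fell in myotubes with siRNA 2 (-0.24) and had -0.06 with siRNA 1, which did not pass. Of the 45 DNA repair genes, 24 and 26 fell and 2 and 0 rose in myotubes. In myoblasts 2 and 5 rose and 2 and 8 fell. The stage difference was lower for 22 (12.8% of all genes) and higher for 1 (10.6%). Apart from the 13 S phase rises with siRNA 2, the myoblast counts of both lists were near or below the shares of all genes.

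Histone genes of S phase had medians of -0.47 and -0.27 in myotubes and 0.15 and 0.41 in myoblasts over the 34 tested. Only 5 had a called stage difference, all lower (14.7%, against 12.8% of all genes), so by calls the list was near all genes. These messages mostly lack a poly(A) tail and have near-identical copies that can share reads. Their summed level overlapped between depleted and control libraries in both stages with siRNA 1. With siRNA 2 it overlapped in myoblasts too, at a mean of 33.9 CPM against 35.7 CPM with control siRNA. The sum there was thus lower, while the list median was above 0. No histone gene is named for these reasons. Of the 24 cell cycle inhibitors and p53 targets tested, 4 had a higher and 6 a lower stage difference, against 10.6% and 12.8% of all genes.

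The list of the unfolded protein and integrated stress responses had medians below 0 in myotubes and above 0 in myoblasts. Of its 42 genes, 2 were opposite with both siRNAs, 24 had a lower stage difference (12.8% of all genes) and 2 a higher one. In myotubes 21 and 19 fell (10.7% and 16.3% of all genes) and 0 and 4 rose (10.1% and 15.1%). In myoblasts 11 and 17 rose (9.65% and 14.8%) and 2 and 2 fell (7.54% and 15.2%). The medians were -0.16 and -0.11 in myotubes and 0.08 and 0.14 in myoblasts. Xbp1, the transcription factor activated by splicing of its message during unfolded protein stress (chromosome 11, positions 5520659 to 5525893 of mm10), stood at 98.9, 101 and 96.8 CPM with siRNA 1, 94.7, 99.1 and 95.6 with siRNA 2 and 108, 110 and 114 with control siRNA in myotubes, and at 94, 93.6 and 92.5 CPM with siRNA 1, 99.5, 91.8 and 96.1 with siRNA 2 and 81.8, 76 and 73.6 with control siRNA in myoblasts. No group overlapped its control, and the stage difference was -0.48 (SE 0.05, adjusted p = 9.63e-07). Manf, a secreted factor induced by stress of the endoplasmic reticulum, had -0.27 and -0.42 in myotubes and 0.13 and 0.18 in myoblasts. Canx, the lectin chaperone calnexin, stood at 531, 529 and 535 CPM with siRNA 1, 491, 525 and 523 with siRNA 2 and 550, 532 and 532 with control siRNA in myotubes, and at 700, 683 and 718 CPM with siRNA 1, 711, 727 and 726 with siRNA 2 and 444, 490 and 478 with control siRNA in myoblasts. It rose in myoblasts (0.57 and 0.62), while neither myotube effect passed the test (-0.02 and -0.07).

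CCAAT was in the promoters of 28 of the 38 stress response genes with an entry (73.7%), against 38.6% of all promoters, and the CHR letters in 2 of 38 (5.26%). The Canx promoter is shown for contrast with those of the mitosis genes, since it holds CCAAT at 3 places, in capitals, and no CHR letters. It is chr11:50325624-50325923 on the minus strand of GRCm38.p6, from RefSeq.
Canx: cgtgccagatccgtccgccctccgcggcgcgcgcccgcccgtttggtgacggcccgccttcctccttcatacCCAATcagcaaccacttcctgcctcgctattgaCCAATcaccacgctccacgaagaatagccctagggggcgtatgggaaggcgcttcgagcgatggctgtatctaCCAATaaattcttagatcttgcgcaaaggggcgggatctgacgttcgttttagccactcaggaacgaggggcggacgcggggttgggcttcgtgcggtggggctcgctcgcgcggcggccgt
Another 7 genes of the endoplasmic reticulum and secretory pathway were among the 100: Creb3l1, Kdelr3, Serp1, Tram1, Dnajc1, Rcn1 and Pign, grouped after their values were seen. Creb3l1, a membrane-bound transcription factor of collagen secretion, had -0.39 and -0.24 in myotubes and 0.55 and 0.50 in myoblasts. Kdelr3, a receptor that returns proteins to the endoplasmic reticulum, had -0.34 and -0.23 in myotubes and 0.28 and 0.28 in myoblasts.

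Extracellular matrix genes rose in myoblasts with siRNA 2 and were mixed in myotubes. Of the 58 tested, 23 had a lower stage difference (12.8% of all genes) and 1 a higher one. In myotubes 19 and 10 fell (10.7% and 16.3% of all genes) and 7 and 7 rose (10.1% and 15.1%), so that with siRNA 2 the list was near all genes, whereas in myoblasts 11 and 33 rose (9.65% and 14.8%) and 2 and 2 fell. The medians were -0.20 and -0.06 in myotubes and 0.18 and 0.33 in myoblasts, and the siRNA 2 myotube median moved to -0.004 with the prefix as a term and to 0.04 within C14 and C13. Col5a2, a fibrillar collagen chain (chromosome 1, positions 45374321 to 45503282 of mm10), stood at 494, 439 and 426 CPM with siRNA 1, 525, 485 and 486 with siRNA 2 and 638, 665 and 664 with control siRNA in myotubes, and at 460, 463 and 465 CPM with siRNA 1, 580, 535 and 550 with siRNA 2 and 430, 401 and 408 with control siRNA in myoblasts, with no overlap in either stage and a stage difference of -0.76 (SE 0.06, adjusted p = 3.63e-08). Serpinh1, the collagen chaperone HSP47, had -0.20 and -0.16 in myotubes and 0.25 and 0.46 in myoblasts. Timp2, an inhibitor of matrix metalloproteinases, rose in myoblasts (0.62 and 0.95) and overlapped its controls in myotubes (0.08 and -0.06, neither called).

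Ccn4, a secreted matricellular protein also known as a Wnt target, was among the genes of the largest reversals (chromosome 15, positions 66891320 to 66923201 of mm10). It stood at 188, 156 and 152 CPM with siRNA 1, 197, 172 and 171 with siRNA 2 and 236, 204 and 246 with control siRNA in myotubes, and at 198, 199 and 209 CPM with siRNA 1, 275, 257 and 279 with siRNA 2 and 146, 136 and 142 with control siRNA in myoblasts. Depleted and control groups were apart in both stages, although the lowest control myotube library was close to the highest with siRNA 2. In log2 units it changed by -0.47 (SE 0.08, adjusted p = 0.000837) and -0.34 (SE 0.08, adjusted p = 0.00458) in myotubes and 0.52 (SE 0.08, adjusted p = 0.00036) and 0.94 (SE 0.08, adjusted p = 3.5e-07) in myoblasts. Control myotubes held more Ccn4 than control myoblasts, and myoblasts with siRNA 2 held more than any control myotube library. Among genes grouped after their values were seen, Adamts14, a procollagen protease, had -0.17 and -0.17 in myotubes and 0.60 and 0.49 in myoblasts.

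A list of targets of the actin-regulated factors YAP and SRF also holds Yap1, Tead1, Srf, Mrtfa and Mrtfb themselves. It had medians below 0 in myotubes and above 0 in myoblasts. So did a list of adhesion genes, although its siRNA 1 myotube median was near that of all genes. Few members of either list were opposite by the definition above. Of the 42 genes of the YAP and SRF list, 5 were opposite with both siRNAs and 25 had a lower stage difference (12.8% of all genes) and 1 a higher one. In myotubes 13 and 25 fell (10.7% and 16.3% of all genes) and 3 and 3 rose (10.1% and 15.1%). In myoblasts 14 and 21 rose (9.65% and 14.8%) and 1 and 3 fell (7.54% and 15.2%). Medians were -0.10 and -0.23 in myotubes and 0.17 and 0.22 in myoblasts. Flna, the actin crosslinker filamin A (chromosome X, positions 74223461 to 74249820 of mm10), stood at 1048, 1127 and 1103 CPM with siRNA 1, 1081, 1093 and 1070 with siRNA 2 and 1382, 1418 and 1440 with control siRNA in myotubes, and at 3024, 2997 and 3248 CPM with siRNA 1, 3283, 3483 and 3463 with siRNA 2 and 2789, 2906 and 2865 with control siRNA in myoblasts, with no overlap and a stage difference of -0.56 (SE 0.05, adjusted p = 6.5e-08). Tpm4, a cytoskeletal tropomyosin, had -0.36 and -0.26 in myotubes and 0.25 and 0.24 in myoblasts. Actb, cytoplasmic beta-actin, named after its values were seen as a common reference gene, was itself opposite, at -0.19 and -0.23 in myotubes and 0.15 and 0.22 in myoblasts. Cnn2, calponin 2, rose in myoblasts by 0.83 and 0.63 and fell in myotubes with siRNA 2 (-0.44), with -0.16 for siRNA 1, which did not pass.

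Among 34 integrin and focal adhesion genes, 3 were opposite with both siRNAs. Of the 34, 17 had a lower stage difference (12.8% of all genes) and 2 a higher one (10.6%). In myotubes 8 and 14 fell (10.7% and 16.3% of all genes) and 3 and 1 rose (10.1% and 15.1%). In myoblasts 10 and 22 rose (9.65% and 14.8%) and 2 and 2 fell (7.54% and 15.2%). The medians were -0.02 and -0.11 in myotubes and 0.09 and 0.16 in myoblasts. With siRNA 1 the myotube median was near that of all genes (-0.007), so no fall of the list is stated there. Vasp, which promotes actin filament growth, had -0.15 and -0.27 in myotubes and 0.27 and 0.14 in myoblasts. Itgav, the integrin alpha V chain, stood at 194, 202 and 201 CPM with siRNA 1, 208, 203 and 194 with siRNA 2 and 203, 188 and 196 with control siRNA in myotubes, and at 265, 264 and 269 CPM with siRNA 1, 276, 276 and 281 with siRNA 2 and 182, 183 and 186 with control siRNA in myoblasts. The myoblast groups were far apart and the myotube groups overlapped, and its stage difference was -0.53. Of 45 tubulins and microtubule regulators, 18 had a lower and 0 a higher stage difference, among them Tubb3 (-0.60 and -0.63 in myotubes, 0.23 and 0.60 in myoblasts, the siRNA 1 rise not called).

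**Figure D3:**
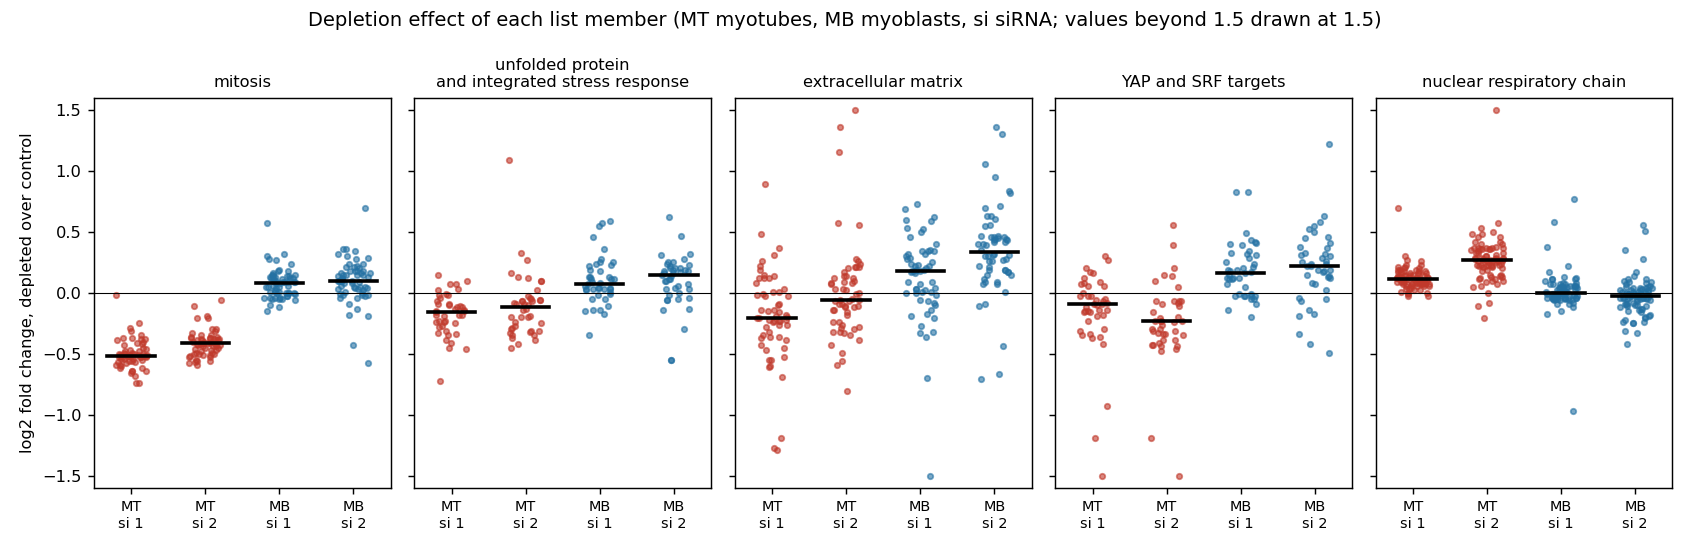
Log2 fold change of depleted over control for each tested member (points) of 5 gene lists, in myotubes (MT, red) and myoblasts (MB, blue) with siRNA 1 and siRNA 2 (si 1, si 2); the black line is the list median. The 4 lists on the left have medians below 0 in myotubes and above 0 in myoblasts, and the respiratory chain has medians of 0.11 and 0.27 in myotubes and near 0 in myoblasts.

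Genes of energy metabolism rose in myotubes, and fewer were called in myoblasts. Of the 80 nuclear-encoded respiratory chain genes, 55 had a higher stage difference (10.6% of all genes) and 2 a lower one. These calls came mostly with siRNA 2: it gave 69 higher stage differences (13.3% of all genes), and siRNA 1 gave 18 (5.17%). In myotubes 37 and 64 rose (10.1% and 15.1% of all genes) and 0 and 1 fell (10.7% and 16.3%). In myoblasts 4 and 7 rose (9.65% and 14.8%) and 2 and 18 fell (7.54% and 15.2%). Only the siRNA 2 falls exceeded the share of all genes in myoblasts. The medians were 0.11 and 0.27 in myotubes and -0.002 and -0.03 in myoblasts, and 8 of 29 alternative settings turned the sign of a myoblast median, so no reversal of the list is stated. Summed, these genes stood at 10546, 10337 and 10184 CPM with siRNA 1, 11897, 11952 and 11727 with siRNA 2 and 9734, 9512 and 9641 with control siRNA in myotubes, with no overlap, and at 8560, 8500 and 8451 CPM with siRNA 1, 8751, 8372 and 8364 with siRNA 2 and 8852, 8466 and 8399 with control siRNA in myoblasts, where the groups overlapped. Ndufs7, a complex I subunit, had 0.23 and 0.27 in myotubes and -0.16 with siRNA 2 in myoblasts. The siRNA 1 value there, -0.06, did not pass.

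The citrate cycle and fatty acid oxidation list followed, with 31 higher and 1 lower of 50, against 10.6% and 12.8% of all genes. With siRNA 1 alone 11 were higher (5.17% of all genes) and with siRNA 2 alone 33 (13.3%). Idh3a, the catalytic subunit of a citrate cycle dehydrogenase, stood at 132, 129 and 135 CPM with siRNA 1, 182, 169 and 171 with siRNA 2 and 115, 108 and 113 with control siRNA in myotubes, and at 138, 137 and 141 CPM with siRNA 1, 141, 138 and 138 with siRNA 2 and 144, 149 and 149 with control siRNA in myoblasts. The myotube rise was larger with siRNA 2 (0.64) than with siRNA 1 (0.24), and neither myoblast effect was called. Pdk4, the kinase that shuts off pyruvate dehydrogenase, fell in myoblasts (-1.33 and -0.65), with 0.24 and 0.26 in myotubes, neither called. Ldhb, the lactate dehydrogenase chain of oxidative muscle, rose in myotubes by 0.84 and 1.05 and had -0.09 and -0.07 in myoblasts, neither called. Of 36 glycolysis genes 10 had a higher and 4 a lower stage difference.

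Ribosomal and proteasome genes also had more positive effects in myotubes. Against 10.6% of all genes, the stage difference was called higher for 37 of 75 mitochondrial ribosomal proteins and lower for none. It was called higher for 25 of 70 cytosolic ribosomal proteins and 13 of 33 proteasome genes, with 1 lower in each (12.8% of all genes). These calls came mostly with siRNA 2: it gave 49, 38 and 19 higher stage differences in the 3 lists, against 13.3% of all genes, and siRNA 1 gave 5, 3 and 2, against 5.17% of all genes, so the siRNA 1 counts were near those of all genes. Mrpl12, a protein of the large mitochondrial ribosome subunit, had 0.14 and 0.33 in myotubes, -0.29 with siRNA 2 in myoblasts and -0.07 with siRNA 1, which did not pass. The difference between siRNAs in its stage difference was 0.41 (SE 0.06, adjusted p = 6.54e-05).

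**Figure D4:**
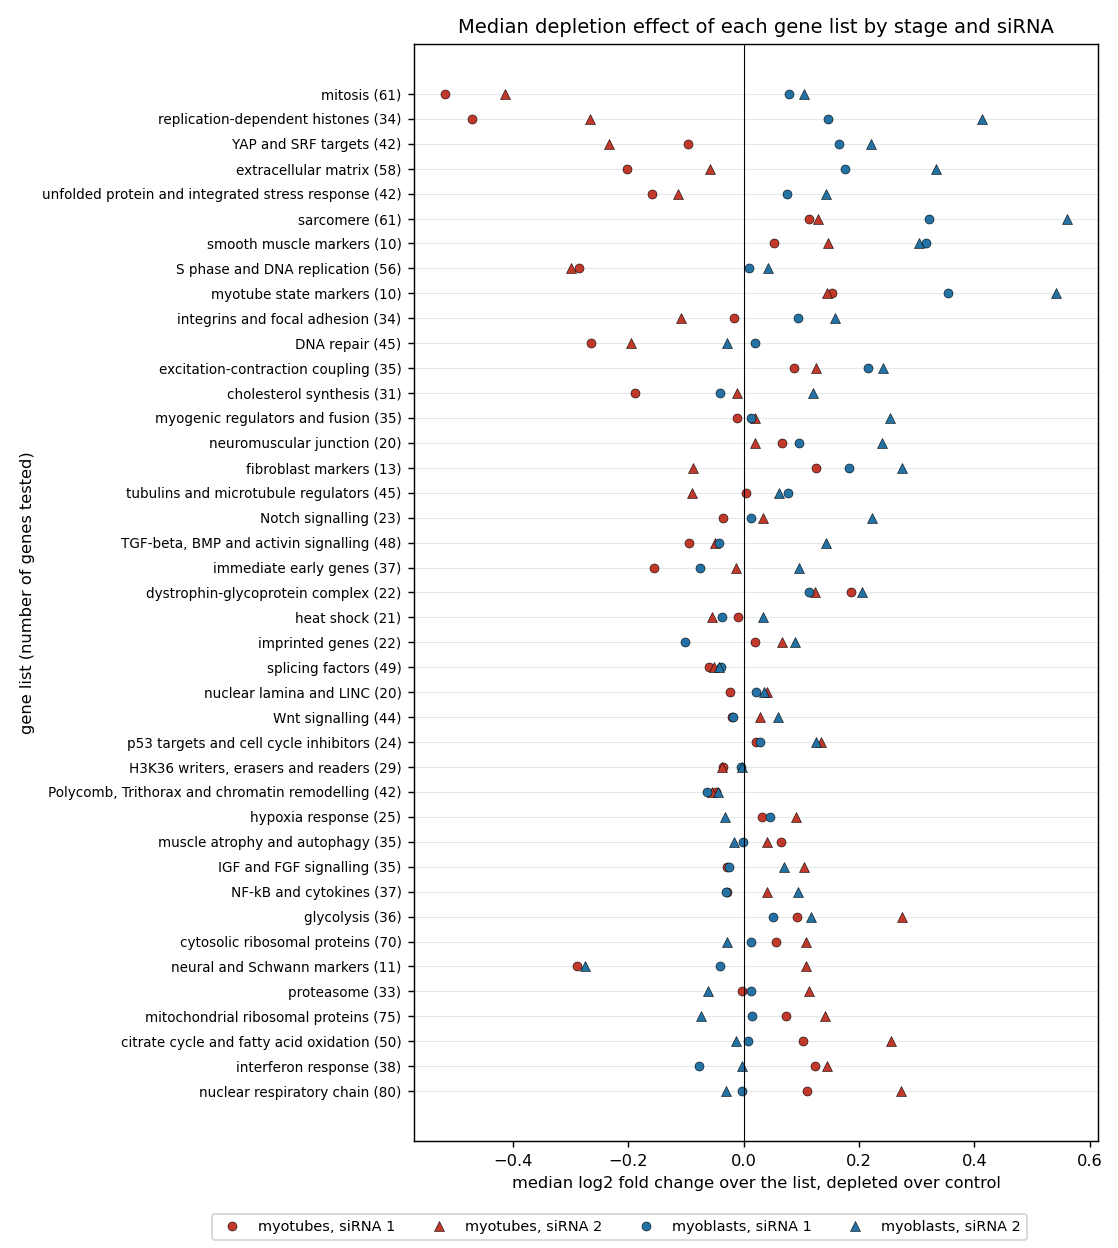
Median log2 fold change of depleted over control for each gene list with at least 10 genes tested, in myotubes (red) and myoblasts (blue) with siRNA 1 (circles) and siRNA 2 (triangles), ordered from the most negative median stage difference at the top. The mitosis list is at the top with a median stage difference of -0.54, and the histone list follows with -0.48. Both have red points left of 0 and blue points right of it. Of the histone genes, however, only 14.7% had a lower stage difference called, against 12.8% of all genes.

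Muscle genes were not among the reversed lists. Of 61 sarcomere genes 2 (3.28%) had a higher and 11 (18.0%) a lower stage difference, against 10.6% and 12.8% of all genes. The sarcomere medians were positive in both stages, 0.11 and 0.13 in myotubes and 0.32 and 0.56 in myoblasts. The myoblast value with siRNA 1 moved with the library prefix, to 0.04 within C14 and 0.01 within D2, whereas with siRNA 2 it was 0.44 and 0.69. With the prefix as a term, 4 sarcomere genes were higher and 19 lower. Of 35 myogenic regulators and fusion genes, 1 was higher and 9 were lower, and with the prefix as a term 5 and 17. Myod1, a master regulator of muscle fate, fell in myotubes (-0.24 and -0.23) and rose in myoblasts with siRNA 2 (0.24), with 0.08 for siRNA 1, which did not pass. Id3, an inhibitor of the myogenic factors, fell in myotubes by -1.05 and -0.85 and rose in myoblasts with siRNA 2 by 0.78, with -0.01 for siRNA 1.

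The 19 genes that rose in myotubes and fell in myoblasts shared no list of more than 1 member. The signalling genes Wnt7b and Grb14 had the highest stage differences of the 19. Wnt7b, a secreted Wnt ligand (chromosome 15, positions 85535437 to 85582473 of mm10), stood at 1.15, 1.12 and 1.06 CPM with siRNA 1, 1.32, 1.29 and 1.54 with siRNA 2 and 0.652, 0.87 and 0.777 with control siRNA in myotubes, and at 4.69, 4.18 and 4.56 CPM with siRNA 1, 3.54, 3.37 and 4.41 with siRNA 2 and 9.13, 7.46 and 8.24 with control siRNA in myoblasts. The groups were apart in both stages, with no more than 1.54 CPM in any myotube library. In log2 units it changed by 0.51 (SE 0.16, adjusted p = 0.0294) and 0.83 (SE 0.16, adjusted p = 0.000432) in myotubes and -0.89 (SE 0.11, adjusted p = 1.04e-05) and -1.13 (SE 0.11, adjusted p = 2.1e-07) in myoblasts, with a stage difference of 1.68 (SE 0.17, adjusted p = 7.38e-07). Grb14, an adaptor that inhibits the insulin receptor (chromosome 2, positions 64912476 to 65024987 of mm10), stood at 2.91, 2.94 and 3.18 CPM with siRNA 1, 5.94, 5.6 and 6.26 with siRNA 2 and 2.38, 1.83 and 2.08 with control siRNA in myotubes, and at 2.68, 2.55 and 2.74 CPM with siRNA 1, 2.42, 2.43 and 2.53 with siRNA 2 and 3.68, 4 and 3.78 with control siRNA in myoblasts. No group overlapped its control, and the rise in myotubes was larger with siRNA 2 (1.51 (SE 0.10, adjusted p = 2.99e-09)) than with siRNA 1 (0.53 (SE 0.10, adjusted p = 0.00108)).

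Rnf144b, a ubiquitin ligase known as a p53 target, and Bcl2l11, which encodes the death-promoting protein BIM, were both reversed. Rnf144b stood at 5.49, 6.37 and 6.21 CPM with siRNA 1, 6.3, 4.38 and 4.97 with siRNA 2 and 3.61, 2.86 and 3.32 with control siRNA in myotubes, and at 22.3, 22.7 and 24.1 CPM with siRNA 1, 15.5, 19.1 and 20.9 with siRNA 2 and 28.3, 31.4 and 32.6 with control siRNA in myoblasts, with no overlap and a stage difference of 1.37 (SE 0.15, adjusted p = 6.71e-06). Bcl2l11 had log2 changes of 0.21 and 0.62 in myotubes and -0.63 and -0.21 in myoblasts. Its larger rise in myotubes was with siRNA 2 and its larger fall in myoblasts with siRNA 1. Arhgef3, an exchange factor for RhoA, had 0.36 and 0.31 in myotubes and -0.24 and -0.43 in myoblasts.

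Jph1 and Cdh1 are membrane genes of the set. Jph1, a junctophilin that anchors the sarcoplasmic reticulum to the cell membrane, stood at 185, 192 and 197 CPM with siRNA 1, 185, 202 and 199 with siRNA 2 and 167, 173 and 157 with control siRNA in myotubes, and at 13, 13.6 and 14.1 CPM with siRNA 1, 15.2, 15.1 and 16.8 with siRNA 2 and 21, 22.7 and 22.3 with control siRNA in myoblasts. All groups were apart from their controls, and its stage difference was 0.81 (SE 0.06, adjusted p = 2.12e-08). Cdh1, E-cadherin (chromosome 8, positions 106603351 to 106670246 of mm10), stood at 17.4, 26.2 and 25.1 CPM with siRNA 1, 22.8, 22.4 and 23.5 with siRNA 2 and 17.4, 19.7 and 16.8 with control siRNA in myotubes, and at 0.894, 0.776 and 0.745 CPM with siRNA 1, 1.47, 1.5 and 1.47 with siRNA 2 and 1.96, 2.37 and 2.07 with control siRNA in myoblasts. The first myotube library of siRNA 1 lay within the control range, whereas all other depleted libraries were outside it. It changed by 0.35 (SE 0.11, adjusted p = 0.0273) and 0.35 (SE 0.11, adjusted p = 0.0195) in myotubes and -1.39 (SE 0.19, adjusted p = 4.12e-05) and -0.52 (SE 0.17, adjusted p = 0.0289) in myoblasts.

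Enzymes made up much of the remainder. Aox1, an aldehyde oxidase, had 0.31 and 0.31 in myotubes and -0.36 and -0.38 in myoblasts. Tars2, the mitochondrial threonyl-tRNA synthetase, had 0.22 and 0.21 in myotubes and -0.27 and -0.51 in myoblasts. Plcl2, a phospholipase C-like protein, had 0.38 and 0.56 in myotubes and -0.27 and -0.49 in myoblasts, where 1 library of siRNA 1 lay within the control range. Ctsb, the lysosomal protease cathepsin B, had 0.31 and 0.17 in myotubes and -0.16 and -0.15 in myoblasts. The others were Mtr (methionine synthase), Slc16a1 (a lactate transporter), Rbm38 (an RNA-binding protein), Rgmb (a BMP co-receptor), Fitm2 (lipid droplet formation), Usp25 (a deubiquitinase), Mpp6 and Msl2.

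**Figure D5:**
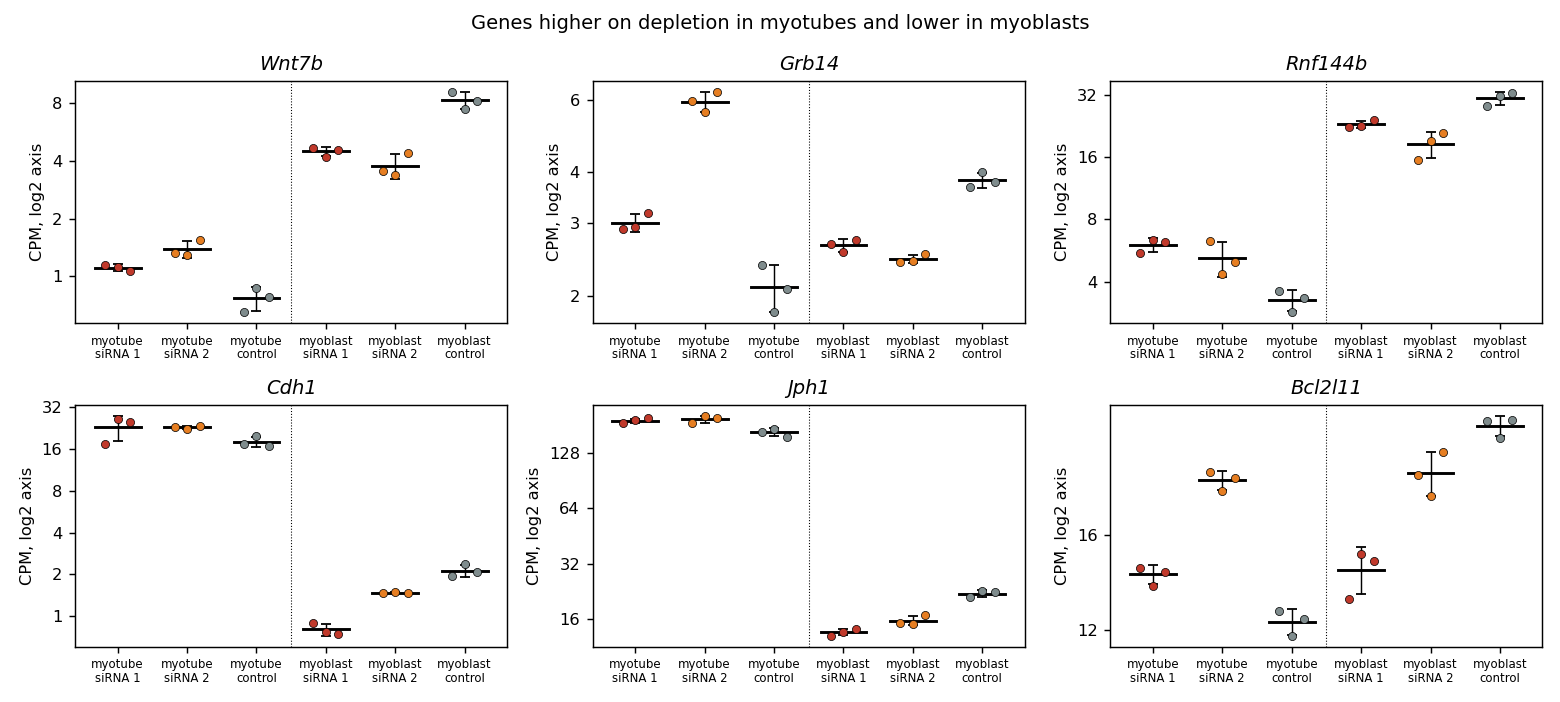
CPM on a log2 axis of 6 genes that rose on depletion in myotubes and fell in myoblasts with both siRNAs. Points are libraries, the thick line is the mean and the bar 1 SD of 3 libraries, with myotube groups left of the dotted line and myoblast groups right of it. The depleted myotube points lie above their controls, apart from 1 Cdh1 library of siRNA 1, and the depleted myoblast points lie below theirs.

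The remaining reversals that were lower in myotubes had varied roles. Ust, a sulfotransferase that modifies chondroitin and dermatan sulfate, stood at 8.85, 8.26 and 8.19 CPM with siRNA 1, 10.6, 8.99 and 7.88 with siRNA 2 and 11.2, 11.4 and 12.5 with control siRNA in myotubes, and at 24.5, 24.5 and 25.1 CPM with siRNA 1, 20.2, 21.6 and 21.3 with siRNA 2 and 14.7, 15.7 and 15.9 with control siRNA in myoblasts. Nlrc3, a negative regulator of innate immune sensing, stood at 13.2, 14.4 and 14.1 CPM with siRNA 1, 11.7, 13 and 12.9 with siRNA 2 and 18.5, 20.4 and 18 with control siRNA in myotubes, and at 5.14, 5.01 and 6.74 CPM with siRNA 1, 5.11, 5.87 and 6.17 with siRNA 2 and 3.73, 4.36 and 4.06 with control siRNA in myoblasts. Neither gene overlapped between depleted and control libraries in either stage, and the stage differences were -0.98 (SE 0.09, adjusted p = 3.51e-07) for Ust and -1.01 (SE 0.12, adjusted p = 6.26e-06) for Nlrc3. Unlike the mitosis genes, Nlrc3 was higher in every myotube library than in any myoblast library. Srd5a1, a steroid 5-alpha reductase, had -0.55 and -0.38 in myotubes and 0.45 and 0.56 in myoblasts, but overlaps Nsun2 on the other strand. Tg, thyroglobulin, had -0.61 and -0.55 in myotubes and 0.49 and 0.55 in myoblasts, at 2.24 to 14.2 CPM, and spans Sla on the other strand. The uncharacterised B630019K06Rik had -0.73 and -0.58 in myotubes and 0.50 and 0.53 in myoblasts, at 1.21 to 2.83 CPM.

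The largest stage differences, called for the mean and each siRNA, were mostly changes in 1 stage. On the higher side, Ccdc3, a secreted protein, stood at 2.39, 2.84 and 2.61 CPM with siRNA 1, 2.79, 3.23 and 2.51 with siRNA 2 and 0.722, 1.13 and 0.738 with control siRNA in myotubes, and at 0.972, 0.905 and 1.25 CPM with siRNA 1, 1.26, 1.22 and 0.774 with siRNA 2 and 1.09, 1.05 and 1.09 with control siRNA in myoblasts. It rose in myotubes only past the test (1.57 (SE 0.20, adjusted p = 1.2e-05) and 1.69 (SE 0.19, adjusted p = 2.07e-06)), and its stage difference was 1.65. Hpgd, which degrades prostaglandins, rose in myotubes by 1.18 and 1.66, with -0.38 and -0.39 in myoblasts, neither called. Ctsc, the lysosomal protease cathepsin C, rose by 0.50 and 1.03 in myotubes, and its myoblast levels did not exceed 0.365 CPM. Foxq1, a forkhead transcription factor, fell in myoblasts by -1.52 and -0.93 and rose in myotubes with siRNA 2 (0.74), with 0.13 for siRNA 1. Akr1b7, an aldo-keto reductase with near-identical relatives, and Tspan8, a tetraspanin, had stage differences of 2.19 and 1.80 that rest on myoblast levels under 0.34 CPM. Both calls were lost with the C14 and C13 libraries alone, and that of Tspan8 also without the third myoblast control.

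On the lower side, Col8a2, a type VIII collagen chain, stood at 1.28, 1.02 and 0.786 CPM with siRNA 1, 2.69, 2.81 and 2.71 with siRNA 2 and 6.52, 4.6 and 6.65 with control siRNA in myotubes, and at 2.23, 2.48 and 2.65 CPM with siRNA 1, 3.07, 2.41 and 2.71 with siRNA 2 and 2.64, 2.46 and 2.17 with control siRNA in myoblasts. It fell in myotubes (-2.52 (SE 0.17, adjusted p = 1.48e-08) and -1.11 (SE 0.15, adjusted p = 1.5e-05)), while myoblast groups overlapped. Tas1r1, a taste receptor subunit, fell in myotubes by -1.07 and -1.11, and Ndst4, an enzyme of heparan sulfate sulfation, by -0.96 and -1.47. Actg2, smooth muscle gamma-actin, fell in myotubes by -0.93 and -1.19, and no myoblast effect of these 3 genes was called. Tmprss11f, a membrane protease, fell in myotubes by -1.56 and -2.43, where its level was at most 0.565 CPM.

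Synpo2l, a Z-disc protein that binds actin, was the opposite case. It stood at 644, 693 and 654 CPM with siRNA 1, 539, 614 and 607 with siRNA 2 and 629, 666 and 603 with control siRNA in myotubes, and at 32.8, 34.9 and 29 CPM with siRNA 1, 63.6, 59.1 and 65.9 with siRNA 2 and 20.9, 14.4 and 14.1 with control siRNA in myoblasts. The myotube groups overlapped, whereas in myoblasts both siRNAs raised it (0.97 (SE 0.12, adjusted p = 8.18e-05) and 1.93 (SE 0.12, adjusted p = 2.96e-08)) from a level far below that of myotubes. Palm3, a membrane-associated paralemmin, rose in myoblasts by 0.91 and 1.68, and Alox5ap, the leukotriene synthesis protein FLAP, by 0.83 and 0.93. Their myotube effects were -0.23 and -0.26 for Palm3 and -0.35 and -0.65 for Alox5ap, none called.

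Insulin-like growth factor binding proteins took different courses. Of 35 IGF and FGF signalling genes, 8 had a higher and 4 a lower stage difference, against 10.6% and 12.8% of all genes. Igfbp2 stood at 137, 156 and 145 CPM with siRNA 1, 161, 119 and 111 with siRNA 2 and 243, 261 and 271 with control siRNA in myotubes, and at 587, 595 and 595 CPM with siRNA 1, 619, 593 and 621 with siRNA 2 and 615, 586 and 581 with control siRNA in myoblasts. It fell in myotubes (-0.82 (SE 0.10, adjusted p = 4.22e-05) and -0.99 (SE 0.10, adjusted p = 3.69e-06)), and the myoblast groups overlapped. Igfbp7 instead rose in myoblasts (0.80 and 0.90) and overlapped in myotubes. Fgfrl1, a decoy FGF receptor, rose in myotubes (0.50 and 0.71) and fell in myoblasts with siRNA 2 (-0.45), with -0.21 for siRNA 1, which did not pass.

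The stage difference itself differed between the siRNAs for 2354 genes (13.9% of those tested), and values of both siRNAs are therefore given for most genes. Genes reversed with siRNA 1 and not with siRNA 2 included Stmn4, a neuronal microtubule regulator. It stood at 1.3, 1.27 and 1.06 CPM with siRNA 1, 3, 3.13 and 2.85 with siRNA 2 and 2.91, 2.09 and 2.6 with control siRNA in myotubes, and at 19.9, 20.1 and 17.7 CPM with siRNA 1, 18, 15.1 and 16 with siRNA 2 and 11, 9.28 and 8.12 with control siRNA in myoblasts. Both siRNAs raised it in myoblasts (1.02 and 0.79), but in myotubes siRNA 1 lowered it (-1.05) and siRNA 2 did not pass (0.26), and the siRNAs' stage differences differed by 1.55 (SE 0.18, adjusted p = 2.21e-05). Bace2, an aspartyl protease, rose in myotubes (1.06) and fell in myoblasts (-0.68) with siRNA 1, and had 0.25 and -0.17 with siRNA 2, neither called. The siRNAs differed by -1.32 (SE 0.17, adjusted p = 4.51e-05). Ptprn, a secretory granule phosphatase-like protein, and Siglecg, a sialic acid-binding receptor, were lower in myotubes (-0.76 and -0.68) and higher in myoblasts (0.69 and 0.95) with siRNA 1. With siRNA 2, under RLE scaling of the libraries, Ptprn had -0.05 in myotubes and 0.47 in myoblasts. Siglecg had -0.52 and 0.25 there, the same signs as with siRNA 1. Ocln (occludin of tight junctions) and Nebl (nebulette of the Z-disc) were higher in myotubes with both siRNAs and lower in myoblasts with siRNA 1 alone past the test. For Ocln the difference between siRNAs was not called (-0.45), so it is not shown to be particular to siRNA 1.

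With siRNA 2 and not siRNA 1, F2rl1, a protease-activated receptor, was reversed. It stood at 1.77, 2.9 and 3.05 CPM with siRNA 1, 5.88, 6.5 and 6.41 with siRNA 2 and 3.24, 3.19 and 2.62 with control siRNA in myotubes, and at 6.93, 6.6 and 6.65 CPM with siRNA 1, 8.54, 8.41 and 9.33 with siRNA 2 and 15.8, 13.5 and 14.5 with control siRNA in myoblasts. Both siRNAs lowered it in myoblasts, whereas in myotubes siRNA 2 raised it (1.05) and siRNA 1 did not pass (-0.23), with a difference between siRNAs of 0.90 (SE 0.18, adjusted p = 0.00217). Foxq1, Celsr3 (an atypical cadherin, at most 0.282 CPM in myoblasts), Id3, Gm7361 and Gm45062 were the other genes named for siRNA 2. None of these 5 differed between siRNAs past the threshold in its stage difference. Gm45062 overlaps Glcci1 and other genes and stood at 2.92, 0.605 and 3.64 CPM in the myoblast controls.

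Several other lists are given by their counts, beside 10.6% higher and 12.8% lower of all genes tested. The stage difference was called for 5 higher and 6 lower of 38 interferon genes, and for 8 higher and 3 lower of 35 atrophy and autophagy genes, where the signs of the medians did not hold under most settings. Of 49 splicing factors 5 were higher and 10 lower, of 29 H3K36 writers, erasers and readers 5 and 5, and of 42 Polycomb, Trithorax and remodelling genes 7 and 7. Of 5 adipocyte markers tested, Pparg and Plin2 had a positive stage difference through a fall in myoblasts (-0.55 and -0.39, -0.40 and -0.54). The list did not move as 1, since in myoblasts 2 of the 5 fell and 1 rose with each siRNA. Fibroblast markers had 0 higher and 4 lower of 13, and summed to 4274 to 5193 TPM in depleted myotubes, 4877 to 5215 TPM in control myotubes, 5907 to 7794 TPM in depleted myoblasts and 5886 to 6319 TPM in control myoblasts. Endothelial and immune markers summed to at most 4.99 TPM in every group.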

How the data were processed

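Polyadenylated RNA of 18 C2C12 libraries, 3 in each of 6 groups taken from the sample labels, was analysed. The deposited estimated counts and TPM are per transcript, with salmon-type columns per the file headers; TPM was scaled by the authors for transcript length and library total. DESeq2 and the build mm10 appear, with no role given, in the submitters' processing notes. No source used here names the quantifier. The estimated counts as deposited were summed per gene through GENCODE M21 (114200 of 115088 transcripts matched; the other 888 held 0.16% to 0.24% of counts), rounded and filtered with filterByExpr (minimum count 10), leaving 16930 genes. A single edgeR 4.0.16 quasi-likelihood model (R 4.3.3, TMM scaling, 12 residual degrees of freedom) over the 6 groups gave every effect, with Benjamini-Hochberg adjustment over all genes tested. The script was tested on simulated data. CPM are TMM-scaled. The 45 lists and all members were chosen with earlier results of these data known.

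Genes were named by rule: Setd2; in each orientation the 10 genes opposite with both siRNAs whose smallest of 4 effects was largest; the 8 highest and 8 lowest stage differences called for the mean and each siRNA; per siRNA and orientation the 3 leading genes opposite with it alone, all at 1 CPM or more; and the 4 list members of lowest p for lists that moved. Such genes were chosen for these effects, so their values are a description. Alternatives were RLE or total scaling, DESeq2 1.42.0, no filter, limma 3.58.1 on log2(TPM + 1) and log2(TPM + 0.1), the library prefix or the replicate number as a term, each prefix alone, and each library left out. No gene-set test was run.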

Additional observations from a re-analysis of the deposited data

Results flagged for a closer look

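The effect of depletion differed between myotubes and myoblasts for 3962 genes by edgeR's test of the stage difference itself. Among 45 named genes ranked for it, 14 had a stage difference that differed between the siRNAs past the threshold. The difference, siRNA 2 minus siRNA 1 on the log2 scale, was positive for Stmn4 (1.55), Col8a2 (1.25), Grb14 (1.09), Ptprn (0.93), F2rl1 (0.90), Siglecg (0.87), Plcl2 (0.40), Ust (0.35) and Tars2 (0.22). It was negative for Tmprss11f (-1.34), Bace2 (-1.32), Synpo2l (-1.14), Cdh1 (-0.87) and Nebl (-0.66). For Grb14, Plcl2, Tars2 and Cdh1, which rose in myotubes and fell in myoblasts with both siRNAs, and for Ust, which did the reverse, the siRNAs differed in size and not in direction.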

How the results depend on the processing

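The 119 genes opposite with both siRNAs kept the signs of all 4 effects in every setting but limma on TPM, where 117 did. They had been chosen for these signs in the same libraries, so this is a description and no separate support. The count itself moved: it was 75 with limma on log2(TPM + 1), 70 on log2(TPM + 0.1), 269 with the prefix as a term, 219 in the D2 and D1 libraries, and 98 with library totals (28 higher and 70 lower in myotubes, 71.4% lower against 84%). For siRNA 1 the opposite genes numbered 174 and 168 with the 2 TPM settings, 602 with the prefix term and 491 in D2 and D1, and for siRNA 2 1242 with the prefix term. With libraries of 1 group and prefix summed before the prefix term, these counts were lower, at 152 for both, 309 for siRNA 1 and 829 for siRNA 2, with 2491 stage differences for siRNA 1 and 2662 differences between siRNAs. Unsummed, the prefix term gave 3857 stage differences for siRNA 1 and 4021 differences between siRNAs, and D2 and D1 alone gave 3705 such differences. Leaving out 1 library at a time gave 3302 to 4170 stage differences for the mean, 1834 to 2764 for siRNA 1, 3953 to 4734 for siRNA 2, 192 to 341 opposite genes for siRNA 1, 575 to 748 for siRNA 2, 84 to 149 for both, and 1804 to 2432 differences between siRNAs. The cause of these shifts was not tested. The Setd2 stage difference stayed between -0.09 and 0.10 with a library left out; it was -0.04 without the third myoblast control, -0.01 and -0.00 without the third myoblast library of siRNA 1 or siRNA 2, and -0.09 without the first myotube library of siRNA 1. The stage difference calls of Akr1b7, Tspan8, Tmprss11f, Nebl, Celsr3 and Gm45062 were lost in at least 1 setting.

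With the number as a replicate block within each stage, 4721 stage differences were called for the mean, 431 genes were opposite with siRNA 1, 942 with siRNA 2 and 193 with both. Libraries of 1 number did not pair throughout: correlations of their deviations ran from -0.241 to 0.425 in myoblasts and from -0.198 to 0.232 in myotubes. Of 9 such correlations in each stage, 7 in myoblasts and 6 in myotubes were above 0.1. The signs followed the prefix: libraries of 1 prefix had correlations of 0.078 to 0.425 in myoblasts and 0.073 to 0.232 in myotubes. Libraries of different prefixes had -0.491 to -0.126 and -0.296 to -0.036. Deviations were taken from the mean of each group, so positive values within a prefix bring negative ones between prefixes. The model reported here has no prefix term. Genes under about 1 CPM rest on few counts, so their stage differences carry the widest errors.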

Other observations

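Lists not described so far had these numbers of genes with a higher and a lower stage difference, beside 10.6% and 12.8% of all genes tested. Of 48 genes of TGF-beta, BMP and activin signalling, 2 were higher and 13 lower, while of 44 Wnt genes 5 were higher and 3 lower and of 23 Notch genes 1 and 3. Of 35 genes of excitation and contraction coupling, which release calcium to start contraction, 6 were higher and 6 lower. Of 22 genes of the dystrophin complex, which ties the fibre to its matrix, 3 were higher and 1 lower, and of 20 genes of the neuromuscular junction 1 was higher and 4 lower. Of 20 genes of the nuclear lamina and its link to the cytoskeleton, 2 were higher and 6 lower. Heat shock genes had 2 higher and 4 lower of 21, and hypoxia genes 5 and 3 of 25.

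Among signalling and metabolic lists, immediate early genes had 4 higher and 3 lower of 37, NF-kB and cytokine genes 4 and 6 of 37, and cholesterol synthesis genes 1 and 0 of 31. The cholesterol count depended on the library prefix: with the prefix as a term it was 3 higher and 17 lower (median stage difference -0.36), within C14 and C13 0 and 24 (-0.48), and within D2 and D1 3 and 22 (-0.18), against a median of -0.16 without the term. Immediate early genes had 8 higher and 12 lower with the prefix as a term. Imprinted genes had 0 higher and 4 lower of 22. Of the marker lists of other cells, smooth muscle had 1 higher and 5 lower of 10, bone and cartilage 1 and 1 of 8, neural and Schwann cells 0 and 3 of 11, and endothelial and immune cells 0 and 0 of 6.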
